A study of Hordeum vulgare with 24 samples.

Results

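VRS1 (HORVU2Hr1G092290), VRS2 (HORVU5Hr1G081450), VRS4 (HORVU3Hr1G016690) and INT-C (HORVU4Hr1G007040, also HvTB1) are 4 regulators of how the spikelets of a barley spike develop. They were chosen by identifier, and all 4 were found among the 39734 identifiers of the count table and of the FPKM table. The names come with that choice, since the tables carry identifiers only. The identifiers place the genes on chromosomes 2H, 5H, 3H and 4H in that order. RNA was sequenced from inflorescences (young spikes) of the cultivar Golden Promise, a barley whose lateral spikelets normally stay sterile. Plants mutant for HvMADS1 (mads1), a SEPALLATA-class MADS-box gene of floral development, were compared with wild-type plants (WT). The sources used here do not say how HvMADS1 was altered. High temperature (HT) was 25 °C by day and 20 °C by night, and low temperature (LT) 15 °C by day and 10 °C by night, under a photoperiod of 16 h. Spikes were taken at Waddington stages W3.5 and W2.5, steps of a scale of spike and floret development. The 8 groups were therefore mads1 HT, WT HT, mads1 LT and WT LT at W3.5 and the same 4 at W2.5. Each group held 3 libraries, labelled as biological replicates, and each library came from a pool of 15 to 20 spikes.

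A barley spike carries a central spikelet flanked by a pair of lateral spikelets at each node, and row type is decided by whether the lateral ones become fertile. VRS1 encodes a homeodomain-leucine zipper transcription factor that restrains the lateral spikelets. VRS4 encodes a LOB-domain protein related to maize RAMOSA2, which keeps spikelet meristems from forming extra spikelets and branches and is known to act upstream of VRS1. VRS2 encodes a protein of the SHORT INTERNODES family that helps to set hormone balance along the spike. INT-C encodes a TCP transcription factor related to maize TEOSINTE BRANCHED1 and modifies the size of lateral spikelets and tillering. The series is named for the part of HvMADS1 in keeping the spike determinate in warm conditions, so these regulators were followed across genotype, temperature and stage.

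Library totals ran from 13283533 to 19864259 counted reads, and 18394 identifiers, the 4 genes among them, passed the filter on low counts. One library stood apart: WT HT W2.5 replicate 3 was scaled by a TMM factor of 0.575, where the others had 0.959 to 1.08. Without it the common dispersion of the fit was 0.0173, against 0.0685 with it. Tests below nevertheless use all 24 libraries, and so carry this wider spread. Values without this library are added where they changed a call, a sign or the size. Of the 4 genes, the dispersion of INT-C moved most, being 0.110 with the library and 0.0174 without it. HvMADS1 (HORVU4Hr1G067680, a name from knowledge of the family) was called lower in mads1 at HT W3.5, at 0, 0.330 and 13.3 CPM (counts relative to TMM-scaled library size) in mads1 against 59.3, 61.3 and 64.9 CPM in WT (log2 fold change -3.79, edgeR adjusted p = 0.0099). At LT W2.5 it averaged 17.5 ± 4.95 CPM in mads1 and 40.7 ± 3.85 CPM in WT, without overlap and not called (-1.21). At LT W3.5 it averaged 46.0 ± 4.01 CPM in mads1 and 59.1 ± 3.45 CPM in WT, also without overlap and not called (-0.36). At HT W2.5 it averaged 10.4 ± 2.68 CPM in mads1 and 8.64 ± 1.94 CPM in WT (SD, n = 3 each). The third mads1 HT W3.5 library, at 13.3 CPM, was unlike the other two. The level of HvMADS1 therefore separates the genotype labels at HT W3.5 and, without a call, at both LT stages. It does not check them at HT W2.5. In whole spikes, fewer cells that express a gene and less RNA per cell cannot be told apart.

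Per kilobase of gene, VRS2 was the highest of the 4 genes in all libraries but WT HT W2.5 replicate 1, where VRS4 was. Over all 24 libraries the mean was 32.7 FPKM (fragments scaled to gene length and library size) for VRS2, 13.8 FPKM for VRS4, 7.23 FPKM for VRS1 and 4.60 FPKM for INT-C. The order of the lower genes was not the same in every group. At HT W2.5, VRS1 read 2.72 to 3.43 FPKM in mads1 and 0.452 to 1.51 FPKM in WT. INT-C there read 2.07 to 2.21 FPKM in mads1 and 1.58 to 4.76 FPKM in WT, so VRS1 lay above INT-C in all 3 mads1 libraries and below it in all 3 WT libraries. Among WT HT W2.5 libraries, VRS2 at 13.7 and 14.1 FPKM and VRS4 at 13.1 and 14.5 FPKM were near each other in replicates 2 and 1, whereas replicate 3 read 23.8 FPKM for VRS2 and 5.34 FPKM for VRS4.

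**Figure D1:**
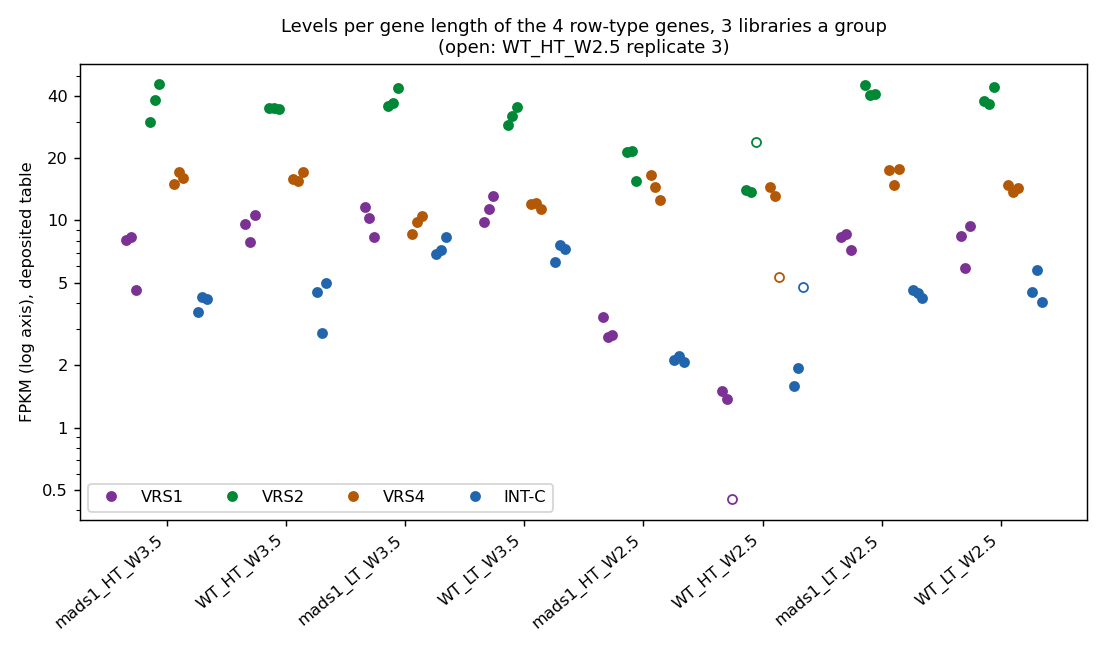
FPKM of the 4 genes (log axis, deposited values) in the 3 libraries of each of 8 groups; colours mark genes and open points are WT HT W2.5 replicate 3. VRS1 is lowest in WT HT W2.5, at 0.452 to 1.51 FPKM.

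At the earlier stage, W2.5, warm spikes of both genotypes held less VRS1 transcript. In WT its level was 1.27, 1.17 and 0.688 CPM at HT W2.5 (22, 16 and 6 reads), against 6.93, 5.30 and 7.83 CPM at LT W2.5. In mads1 it was 2.97, 2.34 and 2.41 CPM at HT W2.5, against 7.43, 7.39 and 6.24 CPM at LT W2.5. The HT and LT libraries did not overlap in either genotype. A share of all genes without overlap is given below only for mads1 against WT at LT. In other comparisons a lack of overlap describes the libraries and cannot be set against all genes. In WT the log2 fold change was -2.63 (SE 0.25, edgeR adjusted p = 5.4e-06), a level 6.18-fold lower at HT. In mads1 it was -1.44 (SE 0.23, edgeR adjusted p = 5.1e-04), a level 2.72-fold lower at HT. Both calls held without WT HT W2.5 replicate 3 (-2.44, edgeR adjusted p = 4.6e-06, and -1.43, 4.1e-05) and without any other single library compared. An edgeR fit of the 6 WT libraries alone gave -2.67 and no call (adjusted p = 0.33). Of all genes tested, 2.02% changed by as much or more in WT and 4.39% in mads1. Of the 4 genes, 1 was called in WT, where 22.4% of all genes were called, and 2 in mads1, where 8.10% were.

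**Figure D2:**
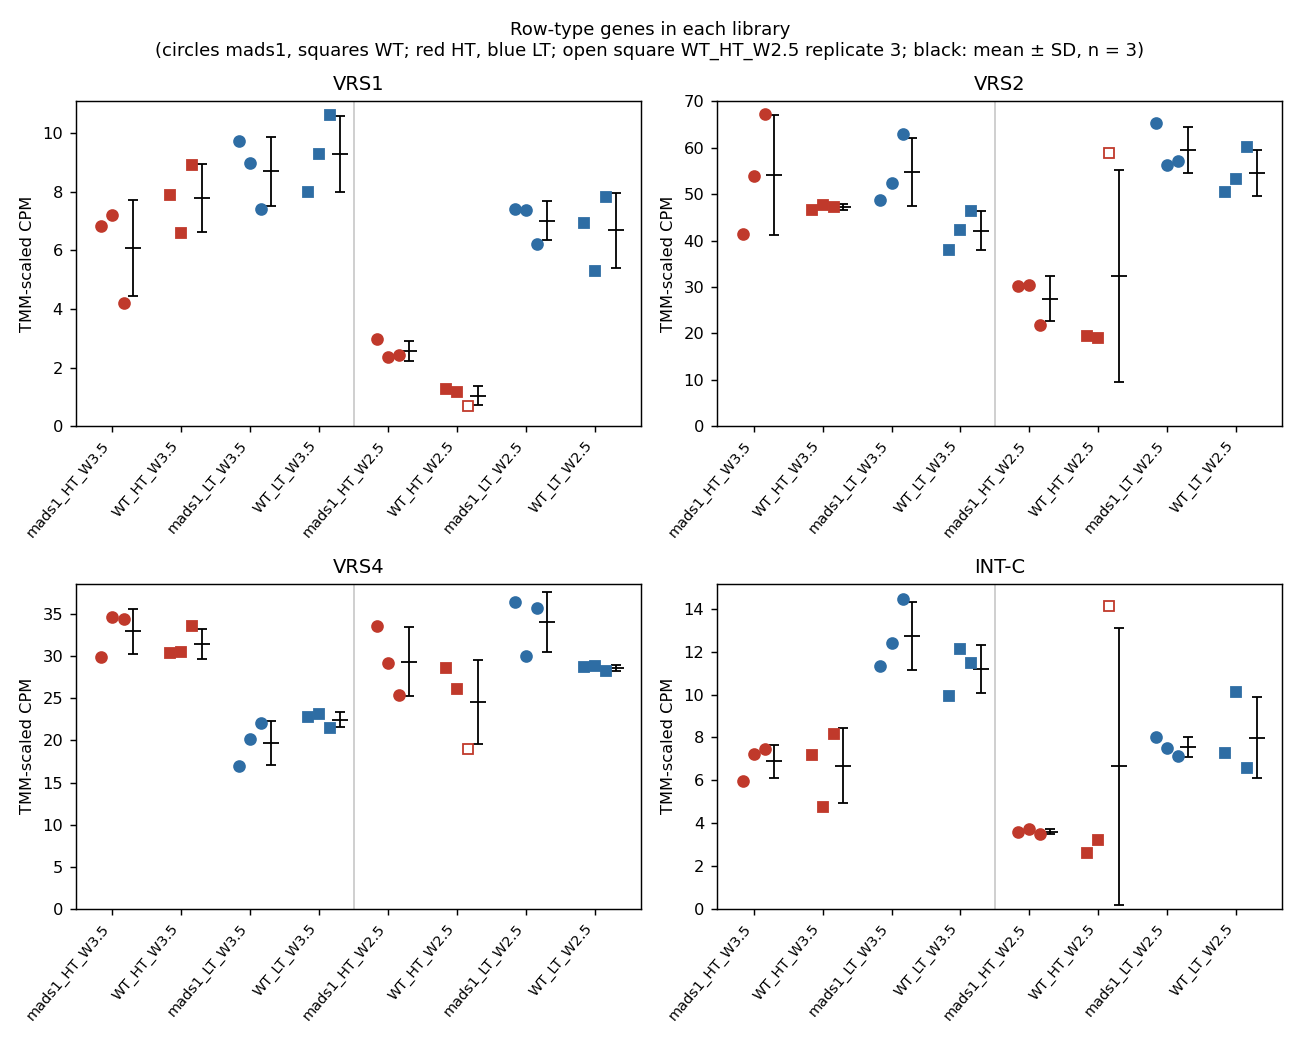
TMM-scaled CPM of each gene in every library, with mean ± SD (n = 3) beside the points; circles are mads1, squares WT, red HT, blue LT, and the open square is WT HT W2.5 replicate 3. The VRS1 libraries at HT W2.5 all lie under 3 CPM, and the open square is far above its group for VRS2 and INT-C.

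VRS2 and INT-C read lower in CPM at HT W2.5 in all libraries but one. VRS2 stood at 30.2, 30.4 and 21.8 CPM in mads1 at HT W2.5, against 65.2, 56.3 and 57.1 CPM at LT W2.5, with no overlap. Its log2 fold change in mads1 was -1.12 (SE 0.30, edgeR adjusted p = 0.027), and -1.10 without WT HT W2.5 replicate 3 (adjusted p = 1.5e-05). With all other libraries kept, the call was lost without any 1 of the 6 libraries compared: mads1 HT W2.5 replicates 1, 2 and 3 (edgeR adjusted p = 0.0643, 0.0634 and 0.128) and mads1 LT W2.5 replicates 1, 2 and 3 (0.0818, 0.0625 and 0.0675). In WT, VRS2 stood at 19.3, 18.9 and 58.8 CPM at HT W2.5, against 50.4, 53.2 and 60.1 CPM at LT W2.5. In CPM, the third HT library lay among the LT libraries. In FPKM, the HT libraries (14.1, 13.7 and 23.8) all lay under the LT libraries (37.6, 36.4 and 44.1). By edgeR the change in WT was -0.76 (SE 0.30, adjusted p = 0.074) with all libraries and -1.51 (SE 0.17, adjusted p = 7.1e-06) without the third HT library. Limma on log2(FPKM + 1) called it with all libraries (-1.19, adjusted p = 4.5e-04).

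INT-C showed the same 2 low libraries and 1 high library in WT. It stood at 2.61, 3.22 and 14.1 CPM at HT W2.5, against 7.26, 10.1 and 6.56 CPM at LT W2.5. By CPM, replicate 3 was the highest of these 6 libraries and the other 2 HT libraries the lowest. In FPKM, replicate 3 read 4.76, within the LT libraries at 4.52, 5.78 and 4.02. The change was -0.31 (SE 0.41, edgeR adjusted p = 0.58) with all libraries and -1.44 (SE 0.21, adjusted p = 1.1e-04) without that one; the sign turned to 0.09 without replicate 1 and 0.02 without replicate 2 of WT HT W2.5. By limma on log2(FPKM + 1), with all libraries, the WT change was -0.70 and called (adjusted p = 0.041). In mads1, INT-C stood at 3.57, 3.72 and 3.49 CPM at HT W2.5, against 8.04, 7.50 and 7.13 CPM at LT W2.5, again without overlap. There the change was -1.07 (SE 0.41), not called with all libraries (edgeR adjusted p = 0.13) and called without WT HT W2.5 replicate 3 (-1.05, adjusted p = 1.9e-04). It was also called in edgeR on the compared groups alone (-1.06, adjusted p = 5.0e-04) and by limma on log2(FPKM + 1) (-0.80, adjusted p = 0.027).

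VRS4 did not pass the test at W2.5. Its level was 33.6, 29.2 and 25.4 CPM in mads1 at HT W2.5, against 36.5, 30.0 and 35.7 CPM at LT W2.5, and the ranges overlapped. In WT it was 28.6, 26.1 and 19.0 CPM at HT W2.5, against 28.7, 28.9 and 28.2 CPM at LT W2.5. The log2 fold change was -0.21 in mads1 (95% interval -0.52 to 0.09) and -0.22 in WT (-0.52 to 0.09). Without WT HT W2.5 replicate 3 it was -0.06 in WT (-0.30 to 0.19). In that fit 3 of the 4 genes, all but VRS4, were called in WT and in mads1, each lower at HT W2.5, where 17.0% and 31.0% of all genes were called. Beside these values, 9 of 13 floral MADS-box genes, a companion list named from knowledge of the family, were called lower at HT W2.5 in WT and 4 in mads1, and none higher, with all libraries (median log2 fold changes -1.85 and -0.45). Without WT HT W2.5 replicate 3, 11 were called lower in WT, and 5 lower and 2 higher in mads1. The part of this shift in the row-type genes was not tested.

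At W3.5, edgeR with all libraries called VRS4 higher at HT in mads1 and did not call INT-C in either genotype. VRS4 stood at 29.9, 34.6 and 34.4 CPM in mads1 at HT W3.5, against 16.9, 20.1 and 22.1 CPM at LT W3.5. The groups did not overlap. The log2 fold change was 0.74 (SE 0.15, edgeR adjusted p = 8.0e-04), held in all 7 fits without 1 library, and was 0.77 (adjusted p = 4.1e-06) without WT HT W2.5 replicate 3. In WT, VRS4 stood at 30.4, 30.5 and 33.6 CPM at HT W3.5, against 22.8, 23.1 and 21.5 CPM at LT W3.5, also without overlap. The change of 0.49 (SE 0.14) just missed the threshold with all libraries (edgeR adjusted p = 0.052). It was called by DESeq2 (0.48, adjusted p = 0.0058) and in edgeR without WT HT W2.5 replicate 3 (0.49, adjusted p = 0.0016). A fit of the compared groups alone in edgeR also called it (0.49, adjusted p = 5.8e-05), and limma on log2(FPKM + 1) did not.

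INT-C at W3.5 stood at 5.99, 7.20 and 7.45 CPM in mads1 at HT, against 11.3, 12.4 and 14.5 CPM at LT. In WT it stood at 7.18, 4.73 and 8.14 CPM at HT, against 9.95, 12.1 and 11.5 CPM at LT. All HT libraries lay under all LT libraries of their genotype, a pattern for which no share of all genes is given. The changes of -0.89 in mads1 (SE 0.40, edgeR adjusted p = 0.11) and -0.74 in WT (SE 0.40, adjusted p = 0.37) were not called by edgeR with all libraries. Both were called without WT HT W2.5 replicate 3 (-0.86, edgeR adjusted p = 2.6e-04, and -0.74, 0.0027), although neither comparison holds that library. Both were also called in edgeR on the compared groups alone, in mads1 (-0.88, adjusted p = 0.0040) and in WT (-0.73, 0.0012). Limma on log2(FPKM + 1), with all libraries, called the change in mads1 (-0.75, adjusted p = 0.014) and not in WT.

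VRS1 and VRS2 were not called between the temperatures at W3.5 with all libraries. VRS1 stood at 6.84, 7.20 and 4.21 CPM in mads1 at HT W3.5, against 9.73, 8.99 and 7.42 CPM at LT W3.5, without overlap. The change of -0.52 was not called with all libraries (edgeR adjusted p = 0.088). It was called without WT HT W2.5 replicate 3 (-0.49, adjusted p = 0.038), a call lost when mads1 HT W3.5 replicate 3 was left out too. That library, the lowest of the mads1 HT W3.5 group for VRS1, is also the one that read 13.3 CPM for HvMADS1. In WT, VRS1 averaged 7.80 ± 1.15 CPM at HT W3.5 and 9.30 ± 1.30 CPM at LT W3.5 (SD, n = 3 each), a change of -0.25 (95% interval -0.70 to 0.20). VRS2 averaged 54.1 ± 12.9 CPM at HT W3.5 and 54.7 ± 7.41 CPM at LT W3.5 in mads1, a change of -0.02 (-0.64 to 0.61), and 0.01 without WT HT W2.5 replicate 3. In WT it averaged 47.2 ± 0.609 CPM at HT W3.5 and 42.1 ± 4.18 CPM at LT W3.5, a change of 0.16 (-0.46 to 0.79), and these libraries did not overlap. In mads1, 1 of the 4 genes was called at W3.5 (VRS4), beside 27.2% of all genes, and 3 without WT HT W2.5 replicate 3, beside 54.3%. In WT DESeq2 called 1 of 4, and 1 had an edgeR p under 0.05 before adjustment, counts given without a share of all genes. With edgeR 0 of 4 were called, beside 6.14% of all genes. Without that library 2 were called, beside 25.8%.

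**Figure D3:**
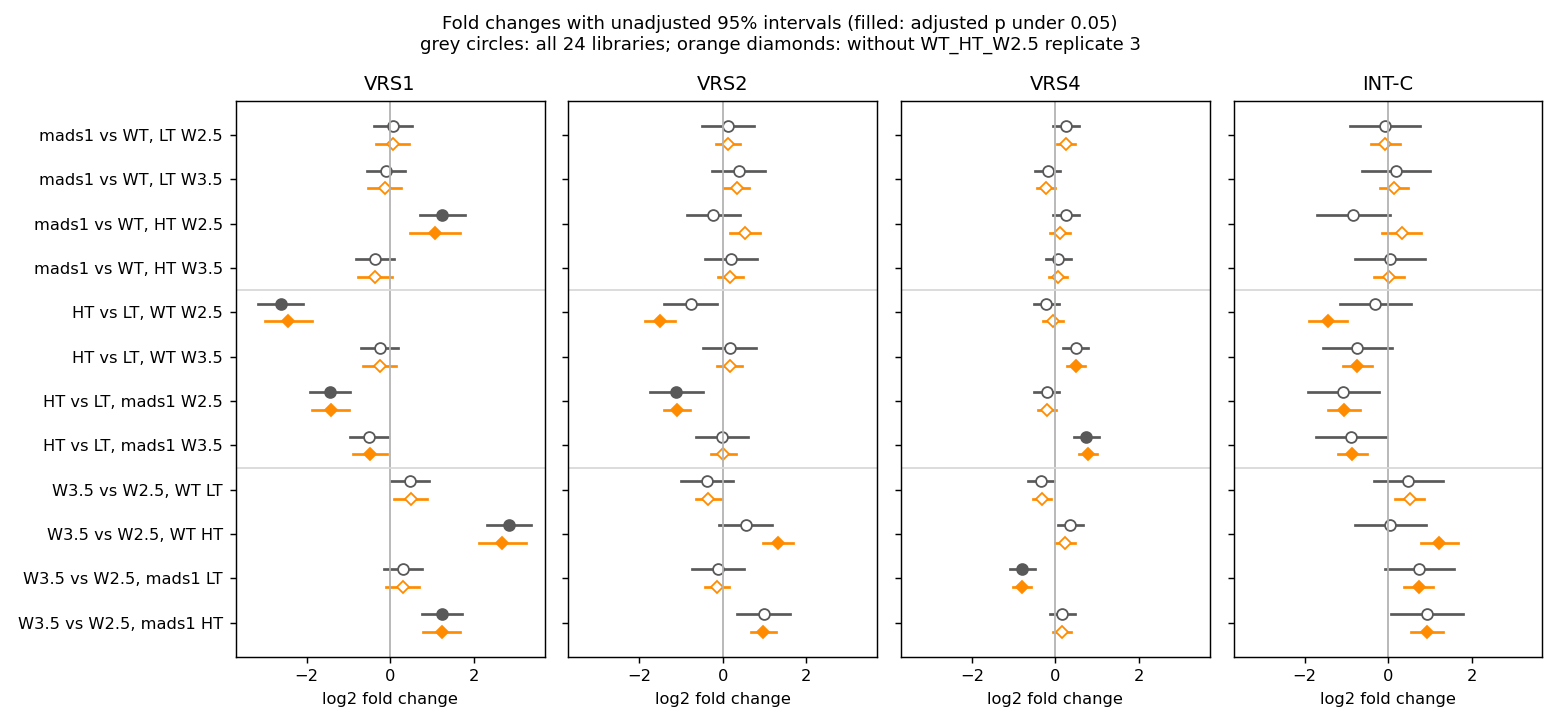
Log2 fold change of each gene with its unadjusted 95% interval in 12 comparisons, with all 24 libraries (grey circles) and without WT HT W2.5 replicate 3 (orange diamonds); filled marks have an adjusted p under 0.05. VRS1 is farthest from 0 in the WT comparisons that hold HT W2.5, at -2.63 and 2.85.

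Between the stages, VRS1 was called at HT in both genotypes and VRS4 at LT in mads1. At HT, VRS1 rose with stage in both genotypes. It averaged 7.80 ± 1.15 CPM at W3.5 and 1.04 ± 0.313 CPM at W2.5 in WT (SD, n = 3 each), which is 7.19-fold, or 2.85 as a log2 ratio (SE 0.25, edgeR adjusted p = 1.9e-06). It averaged 6.08 ± 1.63 CPM at W3.5 and 2.58 ± 0.341 CPM at W2.5 in mads1, a change of 1.24 (SE 0.23, edgeR adjusted p = 0.0018) or 2.36-fold. All W3.5 libraries were above all W2.5 libraries in both genotypes. Both calls held without any single library (log2 fold changes 2.68 to 3.01 in WT and 1.09 to 1.44 in mads1). The WT call was lost in a fit of the 6 compared libraries alone (2.87, edgeR adjusted p = 0.12). At LT the VRS1 changes were smaller and not called: 0.47 in WT (SE 0.22, edgeR adjusted p = 0.72) and 0.31 in mads1 (SE 0.22, adjusted p = 0.98).

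VRS4 fell with stage in mads1 at LT, to 19.7 ± 2.60 CPM at W3.5 against 34.1 ± 3.54 CPM at W2.5 (SD, n = 3 each). The log2 fold change was -0.79 (SE 0.15, edgeR adjusted p = 0.0047), the libraries did not overlap, and the call held in all 7 fits without 1 library. By limma on log2(FPKM + 1) this change was -0.73 and not called (adjusted p = 0.11). In WT at LT the libraries of VRS4 did not overlap either, at 22.5 ± 0.897 CPM at W3.5 and 28.6 ± 0.347 CPM at W2.5, but the change of -0.35 was not called (SE 0.14, edgeR adjusted p = 0.61; 0.099 without WT HT W2.5 replicate 3). At HT, VRS4 averaged 33.0 ± 2.70 CPM at W3.5 and 29.4 ± 4.14 CPM at W2.5 in mads1, and 31.5 ± 1.79 CPM at W3.5 and 24.6 ± 4.95 CPM at W2.5 in WT. The HT changes were 0.17 in mads1 (95% interval -0.14 to 0.47) and 0.35 in WT (0.05 to 0.66), neither called with all libraries. The WT change was called without WT HT W2.5 replicate 1 (0.48, edgeR adjusted p = 0.023) and by DESeq2 (0.34, adjusted p = 0.0429). Without replicate 3, the library that stands apart, it was 0.22 and not called (95% interval -0.02 to 0.47, edgeR adjusted p = 0.22).

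VRS2 and INT-C were higher at W3.5 than at W2.5 in warm mads1 spikes in every library. VRS2 stood at 41.3, 53.8 and 67.2 CPM at W3.5, against 30.2, 30.4 and 21.8 CPM at W2.5 (0.98, SE 0.30, edgeR adjusted p = 0.055). It was called without WT HT W2.5 replicate 3 (0.97, adjusted p = 5.9e-05) or without mads1 HT W3.5 replicate 1 (1.14, 0.039). INT-C averaged 6.88 ± 0.784 CPM at W3.5 and 3.60 ± 0.113 CPM at W2.5 in mads1 at HT (0.93, SE 0.41, edgeR adjusted p = 0.20), and was called without WT HT W2.5 replicate 3 (0.93, adjusted p = 7.2e-04). In WT at HT, the edgeR calls of both turned on that library. For VRS2 the change was 0.55 with it (edgeR adjusted p = 0.17) and 1.32 without it (3.9e-05). For INT-C the change was 0.06 with that library (edgeR adjusted p = 0.93) and 1.23 without it (8.1e-04). Limma on log2(FPKM + 1), with all libraries, called VRS2 in mads1 (0.91, adjusted p = 0.0031) and in WT (1.02, 0.0018), and INT-C in neither.

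At LT, neither VRS2 nor INT-C was called with all libraries. VRS2 averaged 42.1 ± 4.18 CPM at W3.5 and 54.6 ± 4.96 CPM at W2.5 in WT, a change of -0.37 (SE 0.30) without overlap, and the change in mads1 was -0.12 (SE 0.30). INT-C averaged 12.7 ± 1.59 CPM at W3.5 and 7.56 ± 0.458 CPM at W2.5 in mads1, a change of 0.75 (SE 0.40, edgeR adjusted p = 0.74) that was called without WT HT W2.5 replicate 3 (0.73, adjusted p = 0.0086). In WT, INT-C averaged 11.2 ± 1.11 CPM at W3.5 and 7.98 ± 1.89 CPM at W2.5, a change of 0.49 (95% interval -0.34 to 1.31). In WT at LT, 2 of the 4 had an edgeR p under 0.05 before adjustment, a count given without a share of all genes. After adjustment edgeR and DESeq2 called 0 of 4 there, and edgeR called 0.636% of all genes. One gene was called in each of the others: VRS4 in mads1 at LT (1.64% of all genes), VRS1 in WT at HT (24.9%) and VRS1 in mads1 at HT (7.83%). With that library left out, the numbers in the same order were 0, 2, 3 and 3, beside 3.53%, 7.58%, 11.4% and 29.2%. Of the 13 MADS-box genes, 6, 9, 10 and 10 were called higher at W3.5 with all libraries, and 10, 11, 12 and 12 with that one left out.

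The genotype comparisons called 1 of the genes, in 1 setting: VRS1 was higher in mads1 at HT W2.5. It stood at 2.97, 2.34 and 2.41 CPM in mads1 (49, 41 and 38 reads), against 1.27, 1.17 and 0.688 CPM in WT. Every mads1 library was above every WT library. The log2 fold change was 1.25 (SE 0.26, edgeR adjusted p = 0.0056), or 2.38-fold, in a comparison where 13.3% of all genes were called. With WT HT W2.5 replicate 3 left out it was 1.08 (SE 0.29, edgeR adjusted p = 0.028), or 2.11-fold, with 5.66% of all genes called. The call held in all 6 fits without 1 library and was lost in a fit of the 6 compared libraries alone (1.26, edgeR adjusted p = 0.50). Of the 13 MADS-box genes, 1 was called in this comparison, lower in mads1, with all libraries, and 1, higher in mads1, with WT HT W2.5 replicate 3 left out (medians 0.28 and 0.47).

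The other genes at HT W2.5 turned on the library that stands apart. VRS2 averaged 27.5 ± 4.91 CPM in mads1 and 32.4 ± 22.9 CPM in WT (SD, n = 3 each), a change of -0.23 (edgeR adjusted p = 0.59). Without WT HT W2.5 replicate 3 the WT libraries stood at 19.3 and 18.9 CPM and the change was 0.54 (adjusted p = 0.080). INT-C averaged 3.60 ± 0.113 CPM in mads1 and 6.65 ± 6.47 CPM in WT, a change of -0.84 (edgeR adjusted p = 0.18) that turned to 0.32 (0.54) without that library. It was called lower in mads1 without WT HT W2.5 replicate 1 (-1.23, edgeR adjusted p = 0.020) or replicate 2 (-1.16, 0.042), which leave the deviating library as 1 of 2. VRS4 averaged 29.4 ± 4.14 CPM in mads1 and 24.6 ± 4.95 CPM in WT, a change of 0.25 (95% interval -0.05 to 0.56), and 0.12 without that library (-0.13 to 0.36).

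At HT W3.5, the warm setting at the later stage, no row-type gene was called between mads1 and WT. VRS1 stood at 6.84, 7.20 and 4.21 CPM in mads1, against 7.88, 6.61 and 8.91 CPM in WT (-0.36, 95% interval -0.81 to 0.10). VRS2 stood at 41.3, 53.8 and 67.2 CPM in mads1, against 46.5, 47.7 and 47.3 CPM in WT (0.20, -0.43 to 0.82). The spread of VRS2 was wide in mads1 and narrow in WT. VRS4 stood at 29.9, 34.6 and 34.4 CPM in mads1, against 30.4, 30.5 and 33.6 CPM in WT (0.07, -0.24 to 0.37). INT-C stood at 5.99, 7.20 and 7.45 CPM in mads1, against 7.18, 4.73 and 8.14 CPM in WT (0.04, -0.80 to 0.88). All 4 pairs of groups overlapped. Both edgeR and DESeq2 called 0 of 4, beside 5.82% of all genes called by edgeR. Before adjustment 0 had an edgeR p under 0.05, a count given without a share of all genes. Leaving out WT HT W2.5 replicate 3 also gave 0 calls, beside 24.4% of all genes called by edgeR, and 0 such p values. The intervals were then -0.77 to 0.04 for VRS1, -0.11 to 0.48 for VRS2, -0.16 to 0.27 for VRS4 and -0.33 to 0.39 for INT-C. Changes of 1 log2 unit (2-fold) lie outside all 4 of these intervals.

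At LT no row-type gene was called between the genotypes. At W2.5 the changes were 0.07 for VRS1 (95% interval -0.39 to 0.52), 0.13 for VRS2 (-0.50 to 0.75), 0.25 for VRS4 (-0.05 to 0.55) and -0.08 for INT-C (-0.91 to 0.75). VRS4 alone had libraries that did not overlap there, at 30.0 to 36.5 CPM in mads1 and 28.2 to 28.9 CPM in WT. At W3.5 the changes were -0.09 for VRS1 (-0.54 to 0.36), 0.38 for VRS2 (-0.25 to 1.00), -0.19 for VRS4 (-0.49 to 0.11) and 0.19 for INT-C (-0.63 to 1.00). There VRS2 did not overlap, at 48.8 to 63.0 CPM in mads1 and 37.9 to 46.3 CPM in WT. Groups without overlap and higher in mads1 were found for 8.70% of all genes at LT W2.5 and 20.4% at LT W3.5. At each stage edgeR and DESeq2 called 0 of 4, beside 2.27% of all genes called by edgeR at W2.5 and 2.42% at W3.5. Before adjustment 0 had an edgeR p under 0.05, a count given without a share of all genes. Leaving out WT HT W2.5 replicate 3 again gave 0 and 0 calls, beside 5.59% and 14.0% of all genes called by edgeR. There were then 1 and 2 edgeR p values under 0.05 before adjustment.

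With all libraries, edgeR tests of the differences between effects called VRS1 and VRS4. In WT the temperature effect on VRS1 differed between the stages by 2.37 log2 units (SE 0.33, edgeR adjusted p = 0.0012): HT minus LT was -0.25 at W3.5 and -2.63 at W2.5. This held in all 12 fits without 1 library. In mads1 the same difference for VRS1 was 0.93 (SE 0.31, edgeR adjusted p = 0.17), and 0.94 and called without WT HT W2.5 replicate 3 (adjusted p = 0.031). For VRS4 in mads1 the difference was 0.96 (SE 0.20, edgeR adjusted p = 0.022), from 0.74 at W3.5 and -0.21 at W2.5. The VRS4 call was lost in 8 of the 13 fits without 1 library (adjusted p 0.050 to 0.078), those without replicate 2 or 3 of mads1 HT W2.5, replicate 2 or 3 of mads1 HT W3.5, replicate 1 or 3 of mads1 LT W2.5, or replicate 1 or 2 of mads1 LT W3.5, and was firmer without WT HT W2.5 replicate 3 (0.97, 3.1e-04). For VRS4 in WT it was 0.70 (SE 0.20, edgeR adjusted p = 0.14), and called without WT HT W2.5 replicate 1 (0.83, 0.031) or replicate 2 (0.75, 0.049), fits that keep replicate 3 as 1 of 2. Without replicate 3 it was 0.54 and not called (edgeR adjusted p = 0.078). For INT-C in WT it was -0.43 with all libraries and 0.70 without that one, called in neither (edgeR adjusted p = 0.66 and 0.25). For VRS2 it was called only without WT HT W2.5 replicate 3, among the edgeR fits without 1 library, at 1.67 in WT (adjusted p = 1.6e-04) and 1.11 in mads1 (0.0013). Limma on log2(FPKM + 1), with all libraries, called VRS2 in WT (1.32, adjusted p = 0.018) and in mads1 (1.04, 0.037). VRS4 in mads1 was not called by limma (0.88, adjusted p = 0.18) or by edgeR with no filter (0.95, 0.054). A fit of the mads1 groups alone in edgeR called VRS2 (1.10, adjusted p = 0.018) and VRS4 (0.96, 0.0090). By edgeR with all libraries, 1 of 4 was called in each genotype, beside 0.745% of all genes in WT and 1.50% in mads1. Without that library there were 2 in WT and 3 in mads1, beside 2.23% and 14.9%.

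Whether temperature acted differently in mads1 and WT was not shown for any of the 4 genes. For VRS1 at W2.5 the temperature effect was -1.44 in mads1 and -2.63 in WT, a difference of 1.18 (SE 0.34, edgeR adjusted p = 0.15; 0.18 without WT HT W2.5 replicate 3). It was called without WT HT W2.5 replicate 1 (1.35, edgeR adjusted p = 0.046). For the other genes at W2.5 the differences were -0.35 for VRS2, 0.00 for VRS4 and -0.76 for INT-C, and without WT HT W2.5 replicate 3 they were 0.41, -0.14 and 0.39. At W3.5 the 4 differences ran from -0.26 to 0.26. At each stage edgeR and DESeq2 called 0 of 4, beside 0.685% of all genes called by edgeR at W2.5 and 1.51% at W3.5. An edgeR p under 0.05 before adjustment was found for 1 gene at W2.5 and 0 at W3.5. These counts before adjustment are given without a share of all genes. Leaving out WT HT W2.5 replicate 3 gave 0 and 0 calls, beside 1.69% and 14.1% of all genes called by edgeR. The counts before adjustment were the same 1 and 0.

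Across the 8 groups, neighbours in the order of mean levels mostly overlapped. VRS1 was highest in WT LT W3.5, and the levels overlapped from each group to the next down to mads1 HT W3.5. A gap then separated mads1 HT W3.5 from mads1 HT W2.5, and another separated that group from WT HT W2.5, the lowest. VRS2 ran from 59.6 ± 4.92 CPM in mads1 LT W2.5 to 27.5 ± 4.91 CPM in mads1 HT W2.5, with 1 gap between neighbours, between WT HT W3.5 and WT LT W3.5. Without WT HT W2.5 replicate 3 the lowest group for VRS2 was WT HT W2.5, whose other libraries, at 19.3 and 18.9 CPM, lay under all mads1 HT W2.5 libraries, at 21.8 to 30.4 CPM. VRS4 ran from 34.1 ± 3.54 CPM in mads1 LT W2.5 to 19.7 ± 2.60 CPM in mads1 LT W3.5, and each group overlapped the next. The overlap of WT HT W2.5 with WT LT W3.5 rested on that same library, at 19.0 CPM, since the other two were at 28.6 and 26.1 CPM and WT LT W3.5 reached 23.1 CPM. INT-C ran from 12.7 ± 1.59 CPM in mads1 LT W3.5 to 3.60 ± 0.113 CPM in mads1 HT W2.5, also with overlap between all neighbours. For INT-C the overlaps around WT HT W2.5 rested on its replicate 3, since the other two, at 2.61 and 3.22 CPM, lay under all libraries of the other 7 groups.

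The ratio of VRS1 to VRS4 within a library does not depend on how libraries are scaled. It was chosen after the values were seen, out of 6 ratios between the genes. On the FPKM scale it was 0.206 ± 0.0174 in mads1 HT W2.5 and 0.0981 ± 0.0116 in WT HT W2.5 (SD, n = 3 each). It was 0.488 ± 0.0843 in mads1 LT W2.5 and 0.549 ± 0.111 in WT LT W2.5. In this ratio the third WT HT W2.5 library, at 0.0847, was near the other two of its group, at up to 0.105. At W3.5 the ratio was 0.437 ± 0.133 in mads1 HT and 0.579 ± 0.0621 in WT HT, and 1.06 ± 0.280 in mads1 LT and 0.973 ± 0.171 in WT LT. At both stages and in both genotypes all HT libraries lay under all LT libraries. The ratio of VRS4 to INT-C at W3.5 was 3.84 to 4.15 in mads1 HT and 3.43 to 5.37 in WT HT, against 1.24 to 1.35 in mads1 LT and 1.56 to 1.91 in WT LT.

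For each gene, the identifier whose log2 CPM was most like it over the 24 libraries was taken from 16437 others with a mean of at least 1 CPM. For VRS1 this was HORVU1Hr1G085150 (Pearson r = 0.945), for VRS2 HORVU5Hr1G086520 (r = 0.857) and for VRS4 HORVU4Hr1G057210 (r = 0.794). For INT-C it was HORVU0Hr1G003020 (r = 0.951), the identifier that stands for HvMADS18, an APETALA1-group gene, in the MADS-box list. The libraries share groups and depth, so these are descriptions. HORVU0Hr1G003020 read 55.4, 57.2 and 59.2 CPM in mads1 HT W2.5 and 65.0, 63.0 and 160 CPM in WT HT W2.5. Like INT-C, it was low in these groups except in WT HT W2.5 replicate 3. Without that library the Pearson r of this pair was 0.948 and it had rank 2 among those alike to INT-C. The other 3 had rank 3 for VRS1, rank 5 for VRS2 and rank 16 for VRS4 in that setting. By Spearman correlation over 24 libraries, rank 1 was kept for VRS2 alone.

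**Figure D4:**
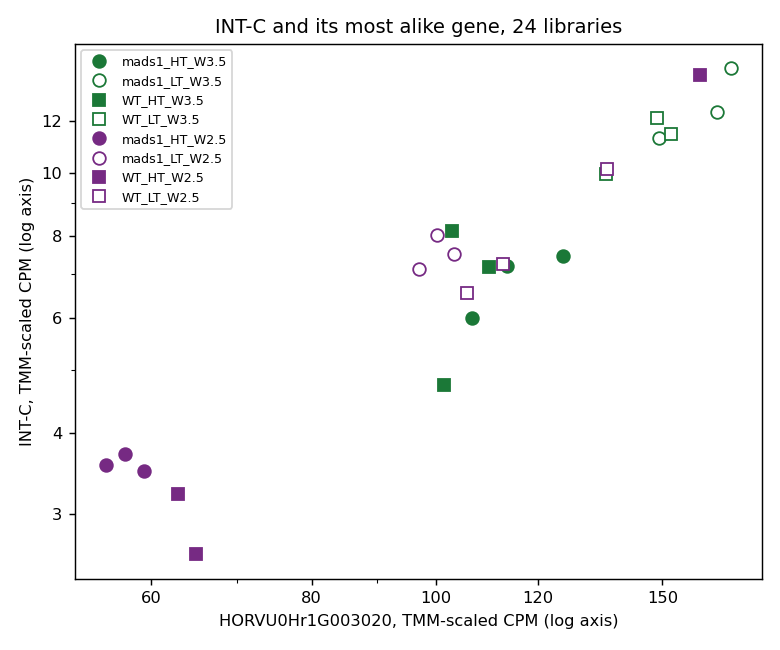
INT-C against HORVU0Hr1G003020 in the 24 libraries, both in TMM-scaled CPM on log axes; circles are mads1, squares WT, filled HT, open LT, green W3.5 and purple W2.5. The filled purple square at 14.1 CPM of INT-C is WT HT W2.5 replicate 3, apart from the other HT W2.5 libraries, all under 4 CPM.

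Without WT HT W2.5 replicate 3, the identifier most like VRS1 was HORVU2Hr1G092300 (r = 0.958 over 23 libraries, 0.906 over 24), which directly follows VRS1 in the numbering of the identifiers. It was looked at after its value was seen. Of the 2 identifiers before and the 2 after VRS1, the other 3 had r of 0.544 or less over 24 libraries. The likeness was not particular to VRS1. Over the 23 libraries, HORVU2Hr1G092300 had a Spearman correlation of 0.936 with INT-C and 0.886 with VRS1. HORVU2Hr1G092300 averaged 9.75 ± 1.79 CPM in mads1 HT W2.5 and 8.16 ± 2.70 CPM in WT HT W2.5 (SD, n = 3 each), against 22.4 ± 2.91 CPM in mads1 LT W2.5 and 22.0 ± 2.64 CPM in WT LT W2.5. Like VRS1, it was called lower at HT W2.5 in mads1 (-1.20, edgeR adjusted p = 4.0e-04) and in WT (-1.44, 9.0e-05). Between mads1 and WT at HT W2.5 its change of 0.27 was not called (edgeR adjusted p = 0.32). It was called without WT HT W2.5 replicate 3 (0.57, edgeR adjusted p = 0.029). Neither the strand setting of the counting nor the positions of the genes were at hand. Reads shared between HORVU2Hr1G092300 and VRS1 therefore cannot be told apart from a like pattern.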

How the data were processed

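Per the labels' protocols, RNA of pooled spikes was made into TruSeq libraries; the tools were HISAT2 and HTSeq, per the submitters' processing notes. For versions, genome build, annotation and strand setting, none is given in the sources used here. Overlapping or near-identical genes are therefore uncertain. The deposited table of counts holds whole reads per identifier, not normalized; the deposited FPKM table scales by gene length and reads, and served to compare genes. In R 4.3.3, edgeR 4.0.16 (filterByExpr, TMM, 8 group means over 24 libraries, quasi-likelihood F tests) gave 16 contrasts, adjusted by Benjamini-Hochberg over 18394 genes; a gene was called under 0.05. Standard errors are fold change over root F, and 95% intervals are unadjusted. The test was checked on simulated counts, with changes set between mads1 and WT at LT W2.5. These counts held no deviating library, so the effect of WT HT W2.5 replicate 3 was not checked. The 4 genes, the lists and the naming rule (the 4 genes, HvMADS1, the most alike identifier of each) were chosen with earlier results of these data known. Alternatives were median-of-ratios scaling, no filter, DESeq2 1.42.0, compared groups only, a replicate block, limma 3.58.1 on log2 FPKM (pseudocount 1 or 0.1), and leaving out libraries. P values judge differences between group means against the spread between these libraries, estimated over all 8 groups. No pair of replicates was a duplicate (2.64 to 438 times the sampling noise). The labels name no batch. No sequence of the genes was used here.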

Additional observations from a re-analysis of the deposited data

Results flagged for a closer look

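VRS1 in WT was flagged because its temperature effect differed between W3.5 and W2.5 by 2.37 log2 units in the interaction test (edgeR adjusted p = 0.0012, all 24 libraries). VRS4 in mads1 was flagged because its temperature effect differed between W3.5 and W2.5 by 0.96 log2 units (edgeR adjusted p = 0.022). Groups of 3 libraries are too small for the test of single deviating libraries.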

How the results depend on the processing

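The replicate block changed no call: all 64 gene results and all 16 counts of genes called kept their side. Pairing by replicate number was not seen in every pair of any comparison. Of 36 correlations of same-numbered deviations, 6 were over 0.1 (range -0.44 to 0.37), and 0 comparisons had all pairs over it. For HT against LT in mads1 at W3.5 they were 0.37, 0.02 and 0.32 for replicates 1, 2 and 3. Groups of 3 libraries are too small for this to exclude pairing. Causes of the changes below were not tested.

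Counts of the 4 genes called moved as follows. Shares of all genes called are given only for the chosen fit and the fit without WT HT W2.5 replicate 3. The counts under other settings therefore show how calls moved and cannot be set against all genes. Fitting the compared groups only gave 0 for mads1 against WT at HT W2.5, for HT against LT in WT at W2.5 and for W3.5 against W2.5 in WT at HT, 3 for HT against LT in mads1 at W2.5 (2 with the chosen fit), 2 for it at W3.5 in mads1 and in WT, 2 and 3 for W3.5 against W2.5 in mads1 at LT and at HT, and 2 for temperature by stage in mads1. Limma with either pseudocount gave 3 for HT against LT at W2.5 in mads1 and in WT, 2 for it in mads1 at W3.5, 2 for W3.5 against W2.5 in mads1 and in WT at HT, 0 for it in mads1 at LT, and 2 for temperature by stage in WT; with pseudocount 0.1, it gave 0 for temperature by stage in mads1, as did no filter. DESeq2 gave 1 for HT against LT in WT at W3.5 (median-of-ratios scaling in edgeR also 1), 2 for W3.5 against W2.5 in mads1 and in WT at HT, and 2 for temperature by stage in WT. Without WT HT W2.5 replicate 3 and mads1 HT W3.5 replicate 3 there were 2 for HT against LT in mads1 at W3.5, and 3 each for W3.5 against W2.5 at HT and temperature by stage in mads1. Leaving out 1 library gave 1 to 2 for mads1 against WT at HT W2.5, 1 to 3 for HT against LT in WT at W2.5, in mads1 at W2.5 and in mads1 at W3.5, 0 to 2 for it in WT at W3.5, 1 to 3 for W3.5 against W2.5 at HT in both genotypes, 1 to 2 in mads1 at LT, 0 to 1 for genotype by temperature at W2.5, and 1 to 2 in WT and 0 to 3 in mads1 for temperature by stage.

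Signs turned only for changes that were not called with all libraries. By limma (pseudocounts 1 and 0.1), VRS2 was 0.21 and 0.22 for mads1 against WT at HT W2.5 and 0.11 and 0.12 for genotype by temperature at W2.5, VRS4 was -0.0039 and -0.0042 at HT W3.5, INT-C was 0.0256 and 0.12 for temperature by stage in WT, and with pseudocount 1 INT-C was -0.0038 at HT W3.5. VRS4 in genotype by temperature at W2.5 was -0.0171 by median-of-ratios scaling and -0.0266 by DESeq2. INT-C for mads1 against WT at HT W3.5 was -0.03 without both libraries named above. Leaving out 1 library, mads1 against WT ran from -0.0718 to 0.20 for VRS1 and -0.20 to 0.13 for INT-C at LT W2.5, -0.19 to 0.0123 for VRS1 at LT W3.5, -0.49 to 0.54 for VRS2 and -1.23 to 0.32 for INT-C at HT W2.5, and -0.16 to 0.21 for INT-C at HT W3.5. HT against LT ran from -1.44 to 0.0879 for INT-C in WT at W2.5 and -0.20 to 0.14 for VRS2 in mads1 at W3.5, and W3.5 against W2.5 from -0.34 to 1.23 for INT-C in WT at HT. Genotype by temperature at W2.5 ran from -0.62 to 0.41 for VRS2, -0.14 to 0.13 for VRS4 and -1.16 to 0.39 for INT-C, and at W3.5 from -0.34 to 0.0198 for INT-C. Temperature by stage in WT ran from -0.83 to 0.70 for INT-C. VRS1 at HT W2.5 rests on 6 to 49 reads a library, which limits its precision.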
